A study of Mus musculus with 4 samples.

Results

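Interferon regulatory factors (IRFs) are a family of transcription factors that share a DNA-binding domain with a row of conserved tryptophans. The genes Irf1, Irf2, Irf3, Irf4, Irf5, Irf7, Irf8 and Irf9 were taken as all probe sets of the value table whose single platform gene symbol was 1 of these names. That gave 14 probe sets for 8 genes, out of 22690 probe sets and 12394 singly named genes in all. Expression was measured on 4 Affymetrix arrays of mouse osteoclast cultures, which had spent 3 days in M-CSF, a survival factor of the lineage, and RANKL, its differentiation signal. The 2 NFATc1-deficient arrays came from C57BL/6 mice with the genotype NFATc1 fl/fl MxCre+, and the 2 wild-type arrays from C57BL/6 mice with the genotype NFATc1 fl/fl MxCre-, so both groups carried the floxed alleles. MxCre is switched on by interferon, and in the deficient mice excision was induced with poly I:C, a double-stranded RNA analogue that induces interferon. No source used here says whether the MxCre- mice also received poly I:C. Genotype and carriage of the Cre transgene cannot be told apart in this design. Starting cells were sorted from whole bone marrow as negative for CD11b, CD3e and B220 and positive for c-Kit and c-Fms, and plated at 20000 per well. Each array held RNA of pooled animals, 3 mice for replicate 1 and 4 mice for replicate 2. In the design text the cells put into culture are named as bone marrow macrophages instead.

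IRFs bind variants of a GAAA repeat, the interferon-stimulated response element (ISRE). IRF3 and IRF7 are activated by kinases downstream of nucleic acid sensors and switch on interferon genes, and IRF9 is the DNA-binding part of the complex ISGF3, which carries the type I interferon signal to the nucleus. IRF1 and IRF2 act on overlapping sites, with IRF2 often opposing IRF1, and IRF5 works downstream of Toll-like receptors. IRF4 and IRF8 act mainly in immune cell lineages and often bind DNA with the ETS factor PU.1. In mouse osteoclast precursors IRF8 restrains NFATc1, RANKL lowers Irf8, and the repressor PRDM1 (Blimp1), which NFATc1 induces, represses Irf8.

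The arrays had median signals between 112 and 130 in arbitrary MAS5 units. Nfatc1 itself had signals of 3018 and 4098 in NFATc1-deficient cultures, against 5434 and 6147 in wild-type cultures, at its brighter probe set (log2 change -0.71, SE 0.15, adjusted p = 0.0102). Adjusted p was 0.0850 without NFATc1-deficient replicate 1, and where this probe set lies relative to the deleted sequence was not analysed here. All changes are NFATc1-deficient minus wild-type on the log2(signal + 23.3) scale, which understates the changes of dim genes. The adjusted p-values come from limma over the 13578 probe sets that passed a filter on low signal, with a threshold of 0.05. Of those probe sets 11.4% were lower and 12.8% higher in the deficient cultures. All 7 tested osteoclast markers, among them Ctsk, Acp5 and Calcr, were present in wild-type cultures and lower in deficient cultures. The replicates were pools of different mice, with 2 pools per genotype. The p-values set a change against the spread between pools, which limma moves toward that of other probe sets of similar signal. A change in bulk signal may come from fewer cells of a type or from less RNA per cell, and these cannot be told apart.

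Few of the family's probe sets were called, with counts near the shares over all tested probe sets. Of the 14 probe sets 11 passed the filter, covering all genes except Irf4. Of these 11, 1 was lower (against 11.4% of all tested probe sets), 0 were higher (against 12.8%) and 10 did not pass by limma, with 3 at an unadjusted p under 0.05. The median change of the 11 was 0.08, beside 0.04 over all tested probe sets. Both deficient signals lay below both wild-type signals at 2 probe sets (against 28.7% of all tested probe sets) and above them at 1 (against 34.4%).

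**Figure D1:**
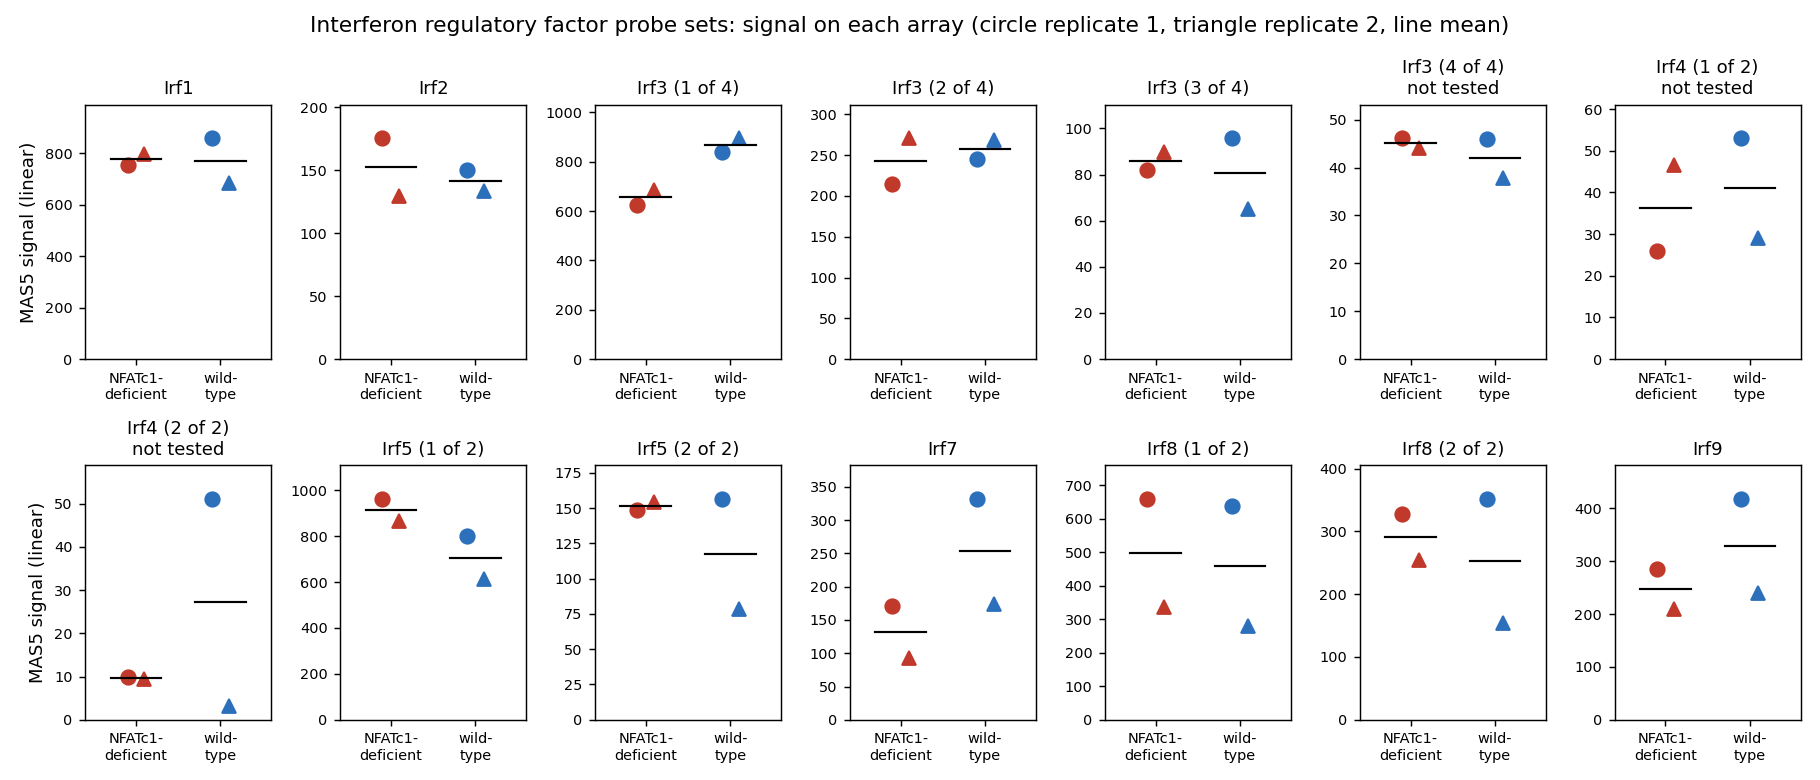
MAS5 signal (linear, y axis from 0) of the 14 interferon regulatory factor probe sets on each array, with NFATc1-deficient arrays in red at left and wild-type arrays in blue at right; circles are replicate 1, triangles replicate 2 and lines the mean of 2 arrays. The red points lie below the blue points for Irf7 and for 1 of 4 Irf3 probe sets, and above them for the brighter Irf5 probe set.

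Irf3, a factor present before infection that sensors of viral nucleic acid activate, was the gene with the probe set that fell. Its brightest probe set had signals of 624 and 686 in NFATc1-deficient cultures, against 838 and 897 in wild-type cultures. Both deficient arrays lay below both wild-type arrays, by a similar amount in each replicate number. The means were 655 ± 44.3 in deficient and 867 ± 41.5 in wild-type cultures (SD, n = 2 each), a log2 change of -0.39 (SE 0.12, limma adjusted p = 0.0495). The change was -0.41 for replicate 1 and -0.38 for replicate 2.

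The other Irf3 probe sets did not show this. The next brightest had 215 and 271 in deficient cultures, against 245 and 269 in wild-type cultures, and the groups overlapped (change -0.08, limma adjusted p = 0.795). A dimmer one had 82.1 and 89.6 in deficient cultures, against 95.9 and 65.2 in wild-type cultures (change 0.09, limma adjusted p = 0.852). The dimmest, with signals from 37.9 to 46.2, was not tested. The probe set that fell is of the type marked _x_at, in which some probes may also match other sequences. The call rested on every array: adjusted p was 0.208 without NFATc1-deficient replicate 1, 0.0639 without NFATc1-deficient replicate 2, 0.0716 without wild-type replicate 1 and 0.185 without wild-type replicate 2.

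Irf7, the factor that amplifies interferon production, had the largest log2 change among the tested probe sets of the family. Its single probe set had signals of 171 and 92.2 in NFATc1-deficient cultures, against 332 and 175 in wild-type cultures. The groups did not overlap, but deficient replicate 1 and wild-type replicate 2 were nearly equal. Means were 132 ± 55.9 in deficient and 253.5 ± 112 in wild-type cultures (SD, n = 2 each), a ratio of 0.520. The log2 change was -0.82 (SE 0.33, 95% interval -1.58 to -0.07) and did not pass (limma adjusted p = 0.110). Within replicate numbers the change was -0.87 for replicate 1 and -0.78 for replicate 2, while replicate 1 exceeded replicate 2 by 1.86 times in deficient and 1.90 times in wild-type cultures. The change was -1.24 without wild-type replicate 2 and -1.20 without NFATc1-deficient replicate 1. It was -0.40 without wild-type replicate 1 and -0.45 without NFATc1-deficient replicate 2. Leaving out 1 array, here and for every other gene, unbalances the replicate numbers between genotypes. Such a change then also holds part of the difference between replicate numbers. With the arrays scaled to 1 median the Irf7 change was -0.81 and passed (limma adjusted p = 0.00362), with an SE of 0.23. In that setting the SE was 0.19 for the Irf3 probe set that fell, Ifngr2 and Psmb9 alike. In the main fit their SEs were 0.12, 0.12 and 0.20. For these probe sets the scaled setting thus took little account of each gene's own spread.

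Irf9, the DNA-binding subunit of ISGF3, had signals of 285 and 209 in NFATc1-deficient cultures, against 418 and 240.3 in wild-type cultures. Wild-type replicate 1 stood above the other arrays, and the groups overlapped. The change of -0.35 (SE 0.26) did not pass (limma adjusted p = 0.375). Without wild-type replicate 2 it was -0.72 (adjusted p = 0.0270), and without wild-type replicate 1 it was 0.02.

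Irf5, which carries Toll-like receptor signals to inflammatory genes, was the only member whose deficient signals lay above the wild-type ones at a tested probe set. The brighter probe set had 963 and 865 in NFATc1-deficient cultures, against 800.1 and 612 in wild-type cultures. Means were 914 ± 69.8 in deficient and 706 ± 133 in wild-type cultures (SD, n = 2 each), with a log2 change of 0.37 (SE 0.15, 95% interval 0.03 to 0.72) that did not pass (limma adjusted p = 0.112). The dimmer probe set had 149 and 154 in deficient cultures, against 157 and 78.5 in wild-type cultures, where wild-type replicate 2 alone was low. Its change was also 0.37 and did not pass (limma adjusted p = 0.405). The brighter probe set had a change of 0.56 (adjusted p = 0.0197) without wild-type replicate 1 and of 0.18 (adjusted p = 0.500) without wild-type replicate 2.

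**Figure D2:**
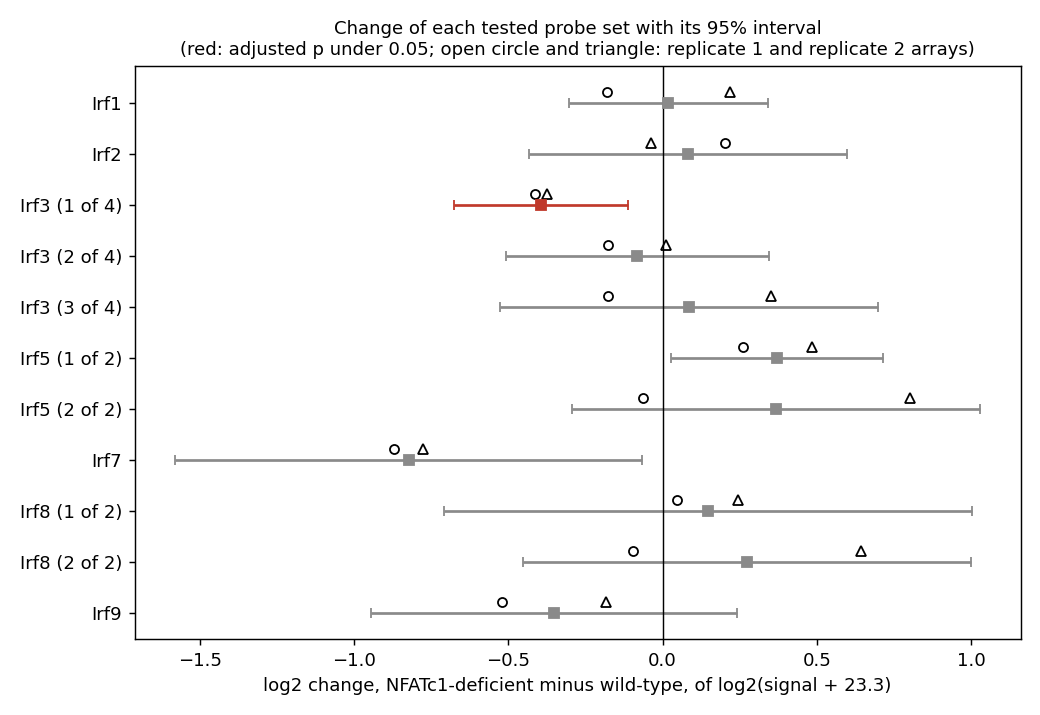
Log2 change of log2(signal + 23.3), NFATc1-deficient minus wild-type, for the 11 tested probe sets (squares) with 95% intervals from limma; open circles and triangles are the differences for replicate 1 and for replicate 2. The interval excludes 0 for Irf7, the brighter Irf5 and 1 Irf3 probe set, and the Irf3 probe set in red had an adjusted p under 0.05.

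Irf1, an activator that interferon gamma induces, had 755 and 797 in NFATc1-deficient cultures, against 859 and 682 in wild-type cultures. The deficient signals lay between the wild-type ones, with means of 776 ± 29.6 in deficient and 771 ± 125 in wild-type cultures (SD, n = 2 each). The log2 change was 0.02 with a 95% interval from -0.30 to 0.34 (limma adjusted p = 0.947). Irf2, its frequent counterpart, had 176 and 130 in deficient cultures, against 149.9 and 134 in wild-type cultures, and the groups overlapped (change 0.08, 95% interval -0.43 to 0.60, limma adjusted p = 0.833). The Irf2 probe set is of the type marked _s_at, which may detect transcripts of more than 1 gene.

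Irf8, the lineage factor with a known restraining role in osteoclast formation, had wide spread within each genotype. The brighter probe set had 660.3 and 337 in NFATc1-deficient cultures, against 639 and 280.2 in wild-type cultures. The replicate 1 arrays were high and the replicate 2 arrays low in both genotypes, and the groups overlapped. Means were 498 ± 229 in deficient and 459 ± 253 in wild-type cultures (SD, n = 2 each), and the change of 0.15 had a 95% interval from -0.71 to 1.00 (limma adjusted p = 0.820). The second probe set had 328 and 254 in deficient cultures, against 352 and 154 in wild-type cultures (change 0.27, 95% interval -0.45 to 1.00, limma adjusted p = 0.585). Within replicate numbers the change at the brighter probe set was 0.05 for replicate 1 and 0.25 for replicate 2. At the second probe set it was -0.10 for replicate 1 and 0.64 for replicate 2. Leaving out 1 array unbalances the replicate numbers between genotypes, and the sign then depended on the array. Without wild-type replicate 1 the changes were 0.71 and 0.82, and without wild-type replicate 2 they were -0.42 and -0.27. Without NFATc1-deficient replicate 1 the brighter one was -0.32.

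Irf4, which acts in lymphocytes, dendritic cells and alternatively activated macrophages, was dim on every array. One probe set had 26.0 and 46.6 in NFATc1-deficient cultures, against 53.1 and 29.0 in wild-type cultures. The other had 9.8 and 9.5 in deficient cultures, against 51.2 and 3.2 in wild-type cultures. The groups overlapped at both, and neither passed the filter, so no level of Irf4 was established here. Without the filter the changes were -0.11 (adjusted p = 0.905) and -0.43 (adjusted p = 0.656).

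Markers of other cells that express IRF genes were also measured. Of 6 B cell markers on the array only Ighm was tested and it did not pass (0.18), and the others, among them Cd79a, Cd79b and Pax5, had at most 53.7. None of 5 T and NK cell markers was tested. Of 8 dendritic cell and antigen presentation markers 5 were tested and 3 were higher (against 12.8% of all genes). These were H2-Aa (0.79), H2-Ab1 (0.55) and H2-Eb1 (0.42), all antigen presentation genes. Cd74 (0.30, limma adjusted p = 0.155) and Itgax (0.07, limma adjusted p = 0.818) did not pass. Flt3, Xcr1 and Ccr7 were not tested, so a change in dendritic cells as such was not shown. The summed signal of the 5 tested markers was 6718 to 7281 in deficient cultures, against 4573 to 5413 in wild-type cultures. Of 8 tested granulocyte markers 3 were higher (against 12.8% of all genes). Their summed signal was 7469.8 to 15612 in deficient cultures, against 5477 to 6057 in wild-type cultures. Of 6 tested macrophage markers 2 were lower (against 11.8% of all genes) and 1 higher (against 12.8%). Their sums were 27912 to 28676 in deficient cultures, against 33023 to 37713 in wild-type cultures. Without detection calls, low signals of these markers show neither the presence nor the absence of a cell type. The part of these markers in the IRF values was not tested.

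Promoters of 4 members are shown because 3 of them carry the letters of a STAT site and Irf7 does not. RefSeq promoter windows of build GRCm38.p6, from 250 bases before to 50 after a transcript start, were found for all 8 genes (11 windows). The letters searched on both strands were TTCNNNGAA for the STAT dimer site (GAS) and, for the ISRE, GAAA repeated with 2 bases of any kind between the copies. The GAS letters occurred in Irf1, Irf2 and Irf8, in 3 of 11 windows (against 8.30% of all 32851 windows). The ISRE letters occurred in Irf2 alone, in 1 of 11 windows (against 3.44% of all windows). In the first 3 windows below capitals mark these matches, GAS in Irf1 and Irf8, and the ISRE followed by GAS in Irf2. The Irf7 window held neither and is shown without capitals.
Irf1 promoter, chr11:53769764-53770063, plus strand: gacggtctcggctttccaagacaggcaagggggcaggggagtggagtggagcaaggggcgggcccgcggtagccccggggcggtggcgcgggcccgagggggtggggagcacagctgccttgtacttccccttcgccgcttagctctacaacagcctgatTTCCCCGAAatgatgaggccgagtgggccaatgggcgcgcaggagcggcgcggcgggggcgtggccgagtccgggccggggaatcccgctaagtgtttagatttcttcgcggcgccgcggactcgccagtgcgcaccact
Irf2 promoter, chr8:46739495-46739794, plus strand: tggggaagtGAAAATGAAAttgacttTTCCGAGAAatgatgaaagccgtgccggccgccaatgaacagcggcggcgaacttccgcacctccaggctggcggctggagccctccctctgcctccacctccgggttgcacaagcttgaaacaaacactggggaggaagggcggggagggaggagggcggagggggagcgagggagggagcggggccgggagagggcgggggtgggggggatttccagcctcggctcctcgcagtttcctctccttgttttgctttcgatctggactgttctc
Irf8 promoter, chr8:120736108-120736407, plus strand: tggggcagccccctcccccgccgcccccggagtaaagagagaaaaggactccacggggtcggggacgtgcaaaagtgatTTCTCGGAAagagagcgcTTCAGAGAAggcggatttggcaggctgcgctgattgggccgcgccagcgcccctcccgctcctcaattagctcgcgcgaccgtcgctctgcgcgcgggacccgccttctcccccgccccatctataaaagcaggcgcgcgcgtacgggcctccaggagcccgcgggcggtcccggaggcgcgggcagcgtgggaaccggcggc
Irf7 promoter, chr7:141266375-141266674, minus strand: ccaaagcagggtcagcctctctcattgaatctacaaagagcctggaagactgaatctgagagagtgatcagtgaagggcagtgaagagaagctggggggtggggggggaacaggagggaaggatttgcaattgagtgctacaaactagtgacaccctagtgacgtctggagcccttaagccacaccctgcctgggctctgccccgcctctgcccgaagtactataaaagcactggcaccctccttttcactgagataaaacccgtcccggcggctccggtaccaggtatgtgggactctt

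The Irf8 window has 2 GAS matches, starting 171 and 153 bases before the start site. The match starts 90 bases before the start site in Irf1 and 224 bases before it in Irf2, where the ISRE match starts at 241 bases before it. In all 3 genes with GAS letters the groups overlapped at every probe set, as they also did for Irf4 and Irf9, which lack them. The letters AGNGAAAG, part of the PRDM1 consensus, occurred in no member's window (against 8.63% of windows). The NFAT core GGAAA occurred in 7 of 11 member windows, from 6 of 8 genes (against 61.3% of all windows). The PU.1 box GAGGAA occurred in 4 of 11, from 3 of 8 genes (against 28.3% of all windows). NFAT core matches overlapped GAS matches in Irf1, Irf2 and Irf8. A match is a description of letters and not a shown site, and other windows of these genes were not searched.

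Of 12 genes for interferon receptors and their JAK-STAT pathway on the array, 11 were tested, 1 was lower, 1 was higher and 9 did not pass (median 0.10, beside 0.03 over all 7801 tested genes, of which 11.8% were lower and 12.8% higher). Both counts are near those shares. Ifngr2, the signalling chain of the interferon gamma receptor, had 575 and 576 in NFATc1-deficient cultures, against 877 and 928 in wild-type cultures. Both deficient arrays lay well below the wild-type arrays, and Ifngr2 fell (log2 change -0.63, SE 0.12, limma adjusted p = 0.00689), passing in all 12 alternatives. A dimmer Ifngr2 probe set had a change of -0.08 and did not pass (limma adjusted p = 0.741).

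Ptpn2, a phosphatase that dampens JAK and STAT signalling, had 2364 and 2270 in deficient cultures, against 1544 and 1613 in wild-type cultures, and rose (log2 change 0.55, SE 0.10, limma adjusted p = 0.00623). A second bright Ptpn2 probe set also rose (0.60), a dimmer one did not pass (0.13, limma adjusted p = 0.819) and the dimmest was not tested. The ligand-binding chain Ifngr1 (0.21, adjusted p = 0.327) and the type I receptor chains Ifnar1 (0.34, adjusted p = 0.0782) and Ifnar2 (0.10, adjusted p = 0.686) did not pass. A dimmer Ifnar2 probe set had -0.16 and did not pass either. Stat2, the IRF9 partner, had 97.1 and 65.1 in deficient cultures, against 158 and 115 in wild-type cultures. The Stat2 groups did not overlap, and the change of -0.62 did not pass (limma adjusted p = 0.133). The kinase Jak2 (0.42) and the ISG15 protease Usp18 (-0.55) did not pass, although a dimmer Jak2 probe set did (0.55, adjusted p = 0.0411).

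Upstream of the IRFs, 11 of 15 sensors, adaptors and kinases on the array were tested, and 1 was lower (against 11.8% of all genes), 0 were higher (against 12.8%) and 10 did not pass by limma (median -0.06). The gene that fell was Traf6, the ubiquitin ligase shared by RANK and Toll-like receptors, with 214 and 226 in deficient cultures, against 375 and 303 in wild-type cultures (change -0.57, adjusted p = 0.0494). Of its other probe sets 1 fell (-0.97) and 1 did not pass (-0.44). Traf6 did not pass without NFATc1-deficient replicate 1 (adjusted p = 0.176), NFATc1-deficient replicate 2 (0.105) or wild-type replicate 1 (0.202). The kinase Irak1 had -0.63 (adjusted p = 0.0517), with -0.31, -0.29 and 0.29 at its other probe sets, none of which passed. The first ranged from -0.96 (adjusted p = 0.00195) without NFATc1-deficient replicate 1 to -0.29 (adjusted p = 0.219) without NFATc1-deficient replicate 2. The adaptor Myd88 (0.27), the trafficking protein Unc93b1 (-0.27) and Tlr4 (0.26, with -0.03 at another probe set) did not pass.

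Among IRF partners and cofactors, 7 of 9 on the array were tested, with 1 lower (against 11.8% of all genes), 1 higher (against 12.8%) and 5 that did not pass (median -0.17). Batf, the AP-1 family protein that binds DNA with IRF4 or IRF8, had 196 and 176 in deficient cultures, against 341 and 279.5 in wild-type cultures, and fell (-0.67, SE 0.19, limma adjusted p = 0.0318). Tcf3, the E2A factor, rose at its brightest probe set (0.58, adjusted p = 0.0455) and had -0.07 at another that did not pass. Spi1, which encodes PU.1, had 3425 and 3348 in deficient cultures, against 3699 and 3919 in wild-type cultures, a change of -0.17 that did not pass (limma adjusted p = 0.271). The regulator Ikzf1 (-0.42) and the ubiquitin ligase Trim21 (-0.27, with 0.13 at another probe set) did not pass either. Batf was not called without either deficient array (adjusted p = 0.0745 for replicate 1 and 0.116 for replicate 2) or without wild-type replicate 1 (0.116), and Tcf3 was not called without any one of the 4 arrays (adjusted p 0.0616 to 0.205).

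The interferon genes themselves gave no usable signal. None of 9 interferon genes on the array passed the filter, and the highest signal was 56.9, for Ifna1 in wild-type replicate 1.

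Genes that ISGF3 is known to drive were mostly on the negative side. Of 24 on the array 19 were tested, and 2 were lower, 0 higher and 17 did not pass by limma (2 of 19, against 11.8% of all genes). The median was -0.28, and 17 of 19 changes were negative, against 3645 of 7801 over all genes. Both deficient signals lay below both wild-type signals for 8 of 19 (against 29.7% of all genes) and above them for 2 of 19 (against 34.2%). Oasl2, a relative of the antiviral 2'-5' oligoadenylate synthetases, had 51.0 and 28.8 in NFATc1-deficient cultures, against 158 and 95.8 in wild-type cultures, and fell (-1.24, SE 0.32, limma adjusted p = 0.0237). Ifi27l2a, an interferon-induced membrane protein, had 398 and 217 in deficient cultures, against 694 and 463 in wild-type cultures, and fell (-0.89, limma adjusted p = 0.0462).

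Ifit3 (-0.73, adjusted p = 0.160), Rsad2 (-0.70, adjusted p = 0.158) and Ifit2 (-0.63, adjusted p = 0.275), all antiviral effectors, did not pass. For these 3 genes wild-type replicate 1 stood far above the other arrays, as for Rsad2 with 201 and 169 in deficient cultures, against 476 and 205 in wild-type cultures. The list had 0 lower genes without wild-type replicate 1, where Oasl2 was no longer tested, 6 without wild-type replicate 2 and 0 without NFATc1-deficient replicate 2. Ifi27l2a was lost without wild-type replicate 1 (adjusted p = 0.0809) or NFATc1-deficient replicate 2 (0.174), and Oasl2 without NFATc1-deficient replicate 2 (0.0906).

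Of 23 genes of the interferon gamma and IRF1 type on the array 17 were tested, and 0 were lower (against 11.8% of all genes), 3 higher (against 12.8%) and 14 did not pass by limma (median 0.08). With the arrays scaled to 1 median 2 were lower. The immunoproteasome subunit Psmb9 had 930 and 824 in deficient cultures, against 682 and 435 in wild-type cultures, and rose (0.66, SE 0.20, limma adjusted p = 0.0394). The immunoproteasome subunit Psmb8 had 2224 and 1744 in deficient cultures, against 1445 and 1219.7 in wild-type cultures, and rose (0.56, SE 0.14, limma adjusted p = 0.0230). The peptide-loading protein Tapbp also rose (0.36, adjusted p = 0.0409), and it is named here because the count was small, after its value was seen. The chemokine Cxcl10 (-0.95, adjusted p = 0.0632), the GTPase Ifi47 (-0.73, adjusted p = 0.113) and the GTPase Gbp3 (0.48, adjusted p = 0.306) did not pass. With 1 array left out Cxcl10 ranged from -1.41 (adjusted p = 0.000605, without wild-type replicate 2) to -0.48 (adjusted p = 0.269, without wild-type replicate 1). Ifi47 ranged from -1.19 (adjusted p = 0.00935, without NFATc1-deficient replicate 1) to -0.27 (adjusted p = 0.505, without NFATc1-deficient replicate 2). With the arrays scaled to 1 median both passed (limma adjusted p = 0.000641 for Cxcl10 and 0.00402 for Ifi47). Their changes were then -0.93 and -0.71, with SEs of 0.23 and 0.20, beside 0.32 and 0.30 in the main fit. As given for Irf7, that setting took little account of each gene's own spread. Psmb8 and Psmb9 were not called without NFATc1-deficient replicate 1 (adjusted p = 0.127 and 0.120), nor Psmb9 without wild-type replicate 2 (0.169). Without NFATc1-deficient replicate 1 the list had 2 lower and 0 higher genes, and without wild-type replicate 1 it had 5 higher.

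**Figure D3:**
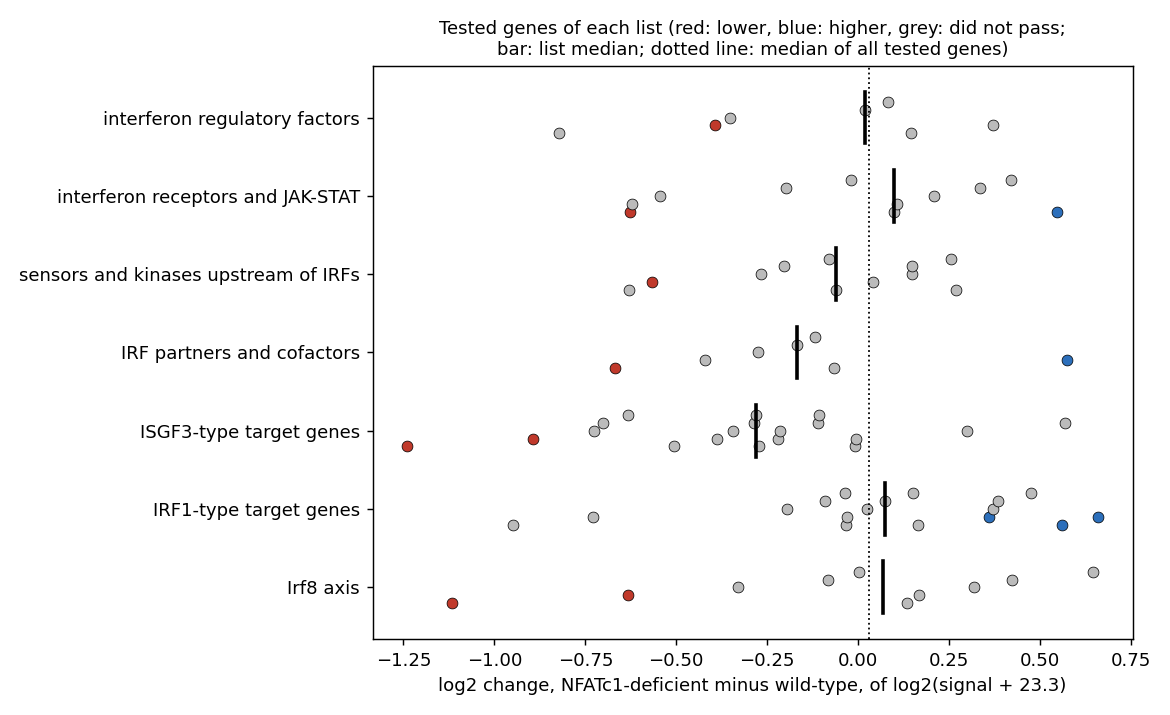
Log2 change of log2(signal + 23.3), NFATc1-deficient minus wild-type, of each tested gene (brightest tested probe set) in the family and 6 pathway lists; red genes were lower, blue genes higher and grey genes did not pass, bars mark list medians and the dotted line the median of all tested genes, 0.03. Most ISGF3-type target genes lie left of 0, and the IRF1-type list has its called genes on the right.

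In the group of genes linked to Irf8, its known repressor fell. All 10 genes on the array were tested, and 2 were lower (against 11.8% of all genes), 0 higher (against 12.8%) and 8 did not pass by limma (median 0.07). Prdm1 had 992 and 1262 in NFATc1-deficient cultures, against 2365 and 2542 in wild-type cultures. Both deficient arrays lay far below both wild-type arrays, and Prdm1 fell (log2 change -1.12, SE 0.13, limma adjusted p = 0.000871), passing in all 12 alternatives. Cybb, the phagocyte oxidase subunit that PU.1 and IRF factors activate, had 658 and 542 in deficient cultures, against 1080.3 and 814 in wild-type cultures, and fell (-0.63, SE 0.16, limma adjusted p = 0.0246). Cybb was lost without NFATc1-deficient replicate 2 (adjusted p = 0.0854) or wild-type replicate 1 (0.0929).

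Bcl6, another repressor under PRDM1 control, had 214 and 237 in deficient cultures, against 219 and 179 in wild-type cultures (change 0.17, limma adjusted p = 0.578). A dimmer Bcl6 probe set had a change of -0.09 and did not pass (limma adjusted p = 0.842). Klf4, a monocyte factor that acts downstream of IRF8, had 519 and 386 in deficient cultures, against 354 and 217 in wild-type cultures. The Klf4 groups did not overlap, and the change of 0.65 did not pass (limma adjusted p = 0.0823), with 0.25 at another probe set. The oxidase subunit Ncf1 (0.42) and the Ras regulator Nf1 (-0.33) did not pass.

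The genes with array profiles nearest to the members were listed as a description, by Euclidean distance of mean-centred log2 values over 4 arrays. For Irf7 they were the beta-glucan receptor Clec7a (distance 0.15), Ifi27l2a (0.22) and Cxcl10 (0.23). Clec7a had 468 and 279 in NFATc1-deficient cultures, against 825 and 519 in wild-type cultures. These genes shared with Irf7 a high wild-type replicate 1 and a low deficient replicate 2, with deficient replicate 1 and wild-type replicate 2 between them. For Irf3 the nearest were Afg3l2, Abca3 and Rnf146 (distances 0.02 to 0.03), and for Irf5 they were H2-DMa, Rad1 and Ngdn (0.04 to 0.05). The distances were taken over 7801 genes with only 4 arrays as points, and the arrays are shared by all of them.

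**Figure D4:**
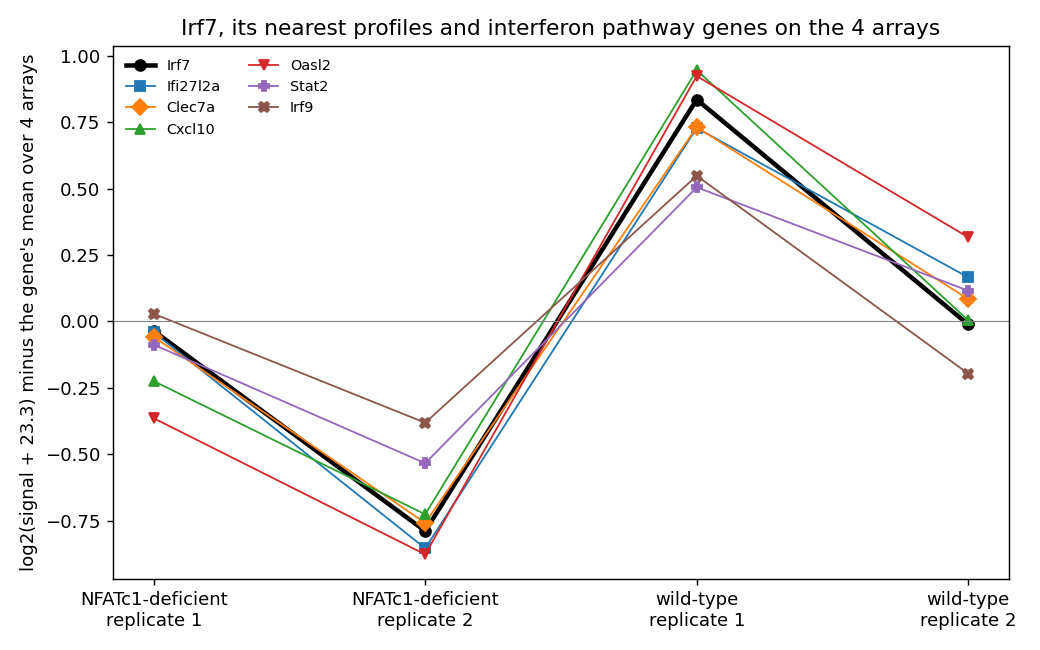
Log2(signal + 23.3) minus each gene's mean over the 4 arrays, for Irf7 (black), its 3 nearest profiles Clec7a, Ifi27l2a and Cxcl10, and Oasl2, Stat2 and Irf9. All 7 genes are highest in wild-type replicate 1 and lowest in NFATc1-deficient replicate 2.

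Cxcl10 is shown with its promoter because the ISRE letters, in capitals, lie in its RefSeq window while the Irf7 window above lacks them.
Cxcl10 promoter, chr5:92348840-92349139, minus strand: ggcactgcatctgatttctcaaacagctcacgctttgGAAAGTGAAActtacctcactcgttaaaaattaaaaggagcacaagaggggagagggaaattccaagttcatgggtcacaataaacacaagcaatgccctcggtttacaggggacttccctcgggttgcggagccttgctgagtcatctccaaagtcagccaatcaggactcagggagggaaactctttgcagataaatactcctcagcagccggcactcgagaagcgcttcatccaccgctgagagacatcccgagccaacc
By gene, the ISRE letters occurred in 8 of 16 ISGF3-type and in 7 of 17 IRF1-type target genes with a window, against 3.99% of all 27025 genes. The lists were drawn up from known interferon targets, so this shows what the lists hold and not a change.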

How the data were processed

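The deposited values are intensity per probe set on a linear scale, and the submitters' processing notes name MAS5 as the authors' tool. Trimmed by 2% at each end, the arrays had means of 500.186 to 500.211. No source used here gives detection calls or the MAS5 version, and the number of arrays limits the precision. Probe sets were named from the supplied platform annotation. All 14 member probe sets matched RefSeq by Entrez number, with 0 changed symbols.

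Signals were analysed as log2(signal + 23.3), the 25th percentile of all values. After 64 control probe sets were removed, the 13578 whose mean log2 value exceeded the 40th percentile were kept. They were fitted with limma 3.58.1 in R 4.3.3 (lmFit, eBayes with trend), two-sided, with Benjamini-Hochberg adjustment over all of them. Lists use the brightest tested probe set of a gene. The fit was also run on simulated data with smoothed variances for this comparison, over 13578 probe sets. It recovered 20 of 50 changes of 1.5-fold, 43 of 50 of 2-fold and 50 of 50 of 4-fold. Of 173 calls 10 were false. Changes were seeded only in probe sets above the median mean signal, and in far fewer than were called in the real data. Recovery at dimmer probe sets was not simulated. Nor was spread particular to a gene, or a difference shared by same-numbered arrays, since the simulated noise was independent between arrays. The counts thus do not give the recovery for members such as Irf7.

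Named genes were all member probe sets, Nfatc1, up to 5 tested genes per list with the largest absolute change, a short set of receptors and partners, and the 3 nearest profiles for the 3 members with the largest change. Members and lists were chosen with earlier results of these data known. Alternatives covered scaling, pseudocount, filter, variance trend, a replicate block, each array left out, and the probe set rule. Figures were drawn with matplotlib 3.10.9.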

Additional observations from a re-analysis of the deposited data

How the results depend on the processing

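No scaling moved the median change of all tested probe sets by over 0.1. The counts over all genes stayed within 1.5 times of those reported except where given here. With a gene taken as the average of its probe sets there were 0 lower and 2 higher among receptor and JAK-STAT genes and 0 higher among partner and cofactor genes. With scaling to 1 median there were 2 lower among sensor and kinase genes and 4 lower and 1 higher among ISGF3-type genes. That setting also gave 2 lower among IRF1-type genes and 1 higher among Irf8-linked genes. Its SEs were 0.24 for the brighter Nfatc1 probe set, 0.23 for Spi1 and 0.20 for the brighter Irf8 probe set. In the main fit these SEs were 0.15, 0.10 and 0.38. For these probe sets, as for those given with Irf7, that setting took little account of each gene's own spread. Without the filter there were 1157 higher among all probe sets, 0 lower among IRF probe sets, 0 lower among sensor and kinase genes, 0 lower and 0 higher among partner and cofactor genes, 0 lower among ISGF3-type genes, 0 higher among IRF1-type genes and 1 lower among Irf8-linked genes. Without the variance trend there were 1015 higher among all probe sets, 0 lower among IRF probe sets, 0 lower among sensor and kinase genes, 1 lower among ISGF3-type genes, 0 higher among IRF1-type genes and 1 lower among Irf8-linked genes. With a pseudocount of 1 there were 0 lower among IRF probe sets. With a pseudocount of 100 there were 2 lower among sensor and kinase genes. With quantile scaling there were 1 lower among ISGF3-type genes. With a stricter filter there were 2 lower among sensor and kinase genes and 1 lower among ISGF3-type genes. The labels give same-numbered arrays the same number of pooled mice but no shared litter, batch or day. Xist and Eif2s3y, given under the other observations, also differed by replicate number in both genotypes. Across the tested probe sets, the deviations of same-numbered arrays from their group means had a correlation of 0.132, with only 2 arrays per genotype. With the replicate block there were 2 lower and 1 higher among IRF probe sets, 2 lower among sensor and kinase genes, 1 higher among ISGF3-type genes, 2 lower among IRF1-type genes and 1 higher among Irf8-linked genes, and the adjusted p was 0.0351 for Irf3, 0.0137 for Irf7 and 0.0472 for the brighter Irf5 probe set. Leaving out 1 array at a time gave 950 to 1531 lower and 864 to 1971 higher among all probe sets, 0 to 2 lower and 0 to 3 higher among IRF probe sets, 1 to 2 lower and 1 to 2 higher among receptor and JAK-STAT genes, 1 to 3 lower among sensor and kinase genes, 0 to 1 lower and 0 to 0 higher among partner and cofactor genes, 0 to 6 lower and 0 to 2 higher among ISGF3-type genes, 0 to 2 lower and 0 to 5 higher among IRF1-type genes and 1 to 2 lower and 0 to 3 higher among Irf8-linked genes, where the lone array of a genotype is assumed to vary like the others. Changes that turned sign with 1 array left out ranged from -0.14 to 0.18 for Irf1, -0.11 to 0.27 for Irf2, -0.24 to 0.072 for the second Irf3 probe set, -0.13 to 0.30 for the third Irf3 probe set, -0.042 to 0.78 for the dimmer Irf5 probe set, -0.42 to 0.71 for the brighter Irf8 probe set, -0.27 to 0.82 for the dimmer Irf8 probe set, -0.72 to 0.020 for Irf9, -0.084 to 0.28 for Ifnar2 and -1.01 to 0.17 for Ikzf1. Irf1 was -0.014 with quantile scaling. The Irf3 probe set that fell passed in 4 of 12 alternatives (adjusted p 0.0351 to 0.208) and did not pass with scaling to 1 median (0.153), a pseudocount of 1 (0.0503), no filter (0.0742) or no variance trend (0.106). Irf7 stayed negative in all 11 alternatives that tested it and passed in 4 (adjusted p 0.00305 to 0.412). Except for the filters and the arrays left out, which change how many probe sets or arrays are used, the cause was not tested. Detection calls were not used, so the standing of dim signals such as those of Irf4 against background is unknown.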

Other observations

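Irf7, Irf8 and Irf9 differed between the pools in the same direction in both genotypes. Replicate 1 exceeded replicate 2 at the brighter Irf8 probe set by 1.96 times in NFATc1-deficient and 2.28 times in wild-type cultures. At the second Irf8 probe set the excess was less alike, 1.29 times in deficient and 2.28 times in wild-type cultures. For Irf9 it was 1.37 times in deficient and 1.74 times in wild-type cultures. At 6 of 11 tested member probe sets replicate 1 was above replicate 2 in both genotypes, beside 25.7% of the 12972 named tested probe sets. At 2 of the 11 it was at least 1.5 times higher in both genotypes, beside 0.786%. Among ISGF3-type target genes 16 of 19, and among IRF1-type target genes 12 of 17, were higher in replicate 1 in both genotypes. Of the 8 granulocyte markers, S100a8, S100a9, Ngp, Ltf and Camp were higher in replicate 1 in deficient cultures and lower in replicate 1 in wild-type cultures. Mpo, Prtn3 and Elane, singled out after their values were seen, were higher in replicate 1 in both genotypes: Mpo had 2890 and 1298 in deficient cultures, against 2021 and 967 in wild-type cultures, and Prtn3 had 1001 and 377 in deficient cultures, against 649 and 337 in wild-type cultures.

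The pools also differed by replicate number in sex-linked transcripts. Xist had 2690 and 111 in deficient cultures, against 3595 and 106 in wild-type cultures, and the Y-linked gene Eif2s3y had 6.5 and 1049.7 in deficient cultures, against 14.4 and 1147 in wild-type cultures. Replicate 1 was a pool of 3 mice and replicate 2 of 4 mice. Mouse number, sex and any other difference between the pools cannot be told apart, and their part in the IRF values was not tested.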
